A study of Mus musculus and Homo sapiens with 14 samples.

Results

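The genes described here are 9 feedback and target genes of the tumour suppressor p53: Mdm2, Phlda3, Ccng1, Sesn1, Zmat3, Fas, Tnfrsf10b, Eda2r and Btg2. They were chosen with earlier results of these data known. Rows were picked by symbol, as written in the mouse tables and in upper case in the human table. All 9 genes were found among 20682 genes of each mouse table and 19166 genes of the human table. Their levels came from RNA sequencing of acute myeloid leukemia cells, in 14 libraries that form 7 groups of 2. Loss of Sik3 or Mef2c through guide RNAs, and chemical inhibition of salt-inducible kinases, were the interventions.

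The p53 protein is a transcription factor that is kept scarce in unstressed cells and accumulates after DNA damage and other stresses, when it switches on genes for cell cycle arrest, repair and cell death. Mdm2 encodes the ubiquitin ligase that marks p53 for destruction and is itself a p53 target, so p53 and MDM2 form a negative feedback loop. Cas9 works by cutting DNA, and such cuts can activate p53, so the level of these targets is commonly read as a gauge of p53 activity in edited cells.

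The groups were as follows. RN2c cells are RN2 mouse leukemia cells that carry Cas9, and they were collected on day 2 after lentiviral infection with a guide RNA. The sgSik3 group held guides e1 and e3 against the kinase gene Sik3, with 1 library each, and the sgMef2c group held guides 1 and 2 against Mef2c, a transcription factor gene. Both were set against 2 libraries with sgRosa26, a guide to a locus used as a control, so the controls carried Cas9, virus and a cutting guide too. RN2 cells, whose titles carry the word empty, received 350 nM YKL-05-099, an inhibitor of salt-inducible kinases, or 0.1% DMSO for 2 hours. MOLM-13 is a human leukemia line, here with an empty vector, that received 250 nM YKL-05-099 or 0.1% DMSO for 2 hours. The MOLM-13 titles also number the libraries 1 and 2 within each agent.

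The recovered totals lay between 13961461 and 24275290 reads a library. The targeted genes followed the labels: Sik3 had 1219 and 1169 normalized counts in sgSik3 libraries, against 1939 and 1878 in sgRosa26 libraries, and Mef2c had 3892 and 4021 in sgMef2c libraries, against 8395 and 8369 in sgRosa26 libraries. These are bulk populations, in which fewer edited or responding cells and less RNA in each cell cannot be told apart. The sum of 10 myeloid markers was 9013 and 8844 RPM (reads scaled to the library total) in sgSik3 libraries and 6812 and 7453 in sgMef2c libraries, against 5105 and 5175 in sgRosa26 libraries. Of the 10 markers, 8 were higher in sgSik3 libraries without overlap and none was lower, and 8 were higher and 1, Csf1r, was lower in sgMef2c libraries. Among all tested genes, 37.4% were higher and 37.8% lower without overlap in sgSik3 libraries, and 35.5% higher and 35.0% lower in sgMef2c libraries. Much of the sum was Lyz2, with 4870 and 4723 RPM in sgSik3 and 2778 and 3120 in sgMef2c libraries, against 2307 and 2155 in sgRosa26 libraries. The part of these markers in the p53 gene values was not tested. Markers of T, B, erythroid and epithelial cells each summed to at most 1.07 on this scale in RN2c. The sum of 4 endothelial markers reached 284 to 347 there, nearly all from Pecam1, and Kdr was at 0 in every mouse library. Of 5 fibroblast markers, which summed to 26.0 to 35.1, nearly all was Pdgfrb, with 32.5 and 34.8 in sgSik3 and 26.5 and 25.8 in sgMef2c libraries, against 28.3 and 27.5 in sgRosa26 libraries, and Col3a1 and Dcn were at 0 in both sgRosa26 libraries.

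The promoters of 7 of the 9 mouse genes were available from RefSeq (build GRCm38.p6), and Zmat3 and Tnfrsf10b had no entry. A search of the 250 bases before each start, on both strands, for the p53 response element, a pair of adjacent decamers of the p53 half-site consensus with up to 2 mismatches, found a match for 1 of the 7 genes, Ccng1. Such a match was present in 0.661% of 32851 promoter windows of all genes, and a match with at most 1 mismatch, as in Ccng1, in 0.0761%. The cAMP response element TGACGTCA, the site read by CREB, whose coactivators are regulated by salt-inducible kinases, was present in the Btg2 window alone among these genes and in 1.55% of all windows. The letter matches describe these windows only and do not show that a factor bound there. Both stretches are printed because they hold the only matches among the windows of these genes. The part of either element in the gene values was not tested. Capitals mark the matched element, which begins 195 bases before the start of Ccng1 and 166 before that of Btg2.
Ccng1, chr11:40755392-40755511, minus strand: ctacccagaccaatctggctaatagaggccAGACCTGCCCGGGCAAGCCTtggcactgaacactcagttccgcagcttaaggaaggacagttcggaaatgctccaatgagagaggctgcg
Btg2, chr1:134079232-134079351, minus strand: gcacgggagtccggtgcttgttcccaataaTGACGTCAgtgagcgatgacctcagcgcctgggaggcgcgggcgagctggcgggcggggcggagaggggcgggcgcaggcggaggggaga

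The first comparison asked how the p53 genes stood after Sik3 was targeted rather than Rosa26. Leaving aside Eda2r, which entered the test only through its high sgRosa26 values, all 8 other genes passed, with 6 lower and 2 higher in sgSik3 libraries. The background was high: 47.8% of 10934 tested genes passed, 23.9% lower and 23.9% higher. The median log2 difference was -0.25 over the 8 genes and -0.0005 over all tested genes. Values below are the deposited normalized counts, log2 differences with their standard error (SE) were fitted with limma on log2(value + 1), and p-values are Benjamini-Hochberg adjusted over all tested genes with 0.05 as the threshold.

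Of the feedback genes, Mdm2 had 3239 and 3298 normalized counts in sgSik3 libraries, against 3728 and 3890 in sgRosa26 libraries. That is a small fall, to 0.858 of the control mean, and the groups did not overlap (log2 difference -0.22, SE 0.04, limma adjusted p = 0.0011). Phlda3, which encodes a repressor of the survival kinase AKT, had 168 and 150 in sgSik3 libraries, against 303 and 334 in sgRosa26 libraries. It stood at 0.499 of the control mean, a far deeper fall than that of Mdm2 (-0.999, SE 0.11, limma adjusted p = 0.0001). Ccng1 encodes cyclin G1, which recruits a phosphatase that acts on MDM2, and had 6766 and 6417 normalized counts in sgSik3 libraries, against 7607 and 8450 in sgRosa26 libraries. Its fall was again small and without overlap of the groups (-0.28, SE 0.05, limma adjusted p = 0.0016), and did not pass without the mean-variance trend (limma adjusted p = 0.052).

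Among genes of arrest, antioxidant defence and RNA control, Sesn1 and Zmat3 fell and Btg2 rose. Sesn1, a sestrin that restrains mTORC1 signalling, had 1569 and 1648 normalized counts in sgSik3 libraries, against 1758 and 1845 in sgRosa26 libraries. This was the smallest of the falls (-0.16, SE 0.05, limma adjusted p = 0.017), and it no longer passed without guide e1 (-0.13, limma adjusted p = 0.14), with DESeq2 (adjusted p = 0.098) or without the mean-variance trend (limma adjusted p = 0.084). Zmat3, a zinc finger RNA-binding protein that controls splicing, had 1074 and 1079 in sgSik3 libraries, against 1484 and 1785 in sgRosa26 libraries, and fell to 0.658 of the control mean (-0.60, SE 0.08, limma adjusted p = 0.0002). Btg2, an antiproliferative gene that promotes mRNA deadenylation, went the other way. It had 393 and 349 normalized counts in sgSik3 libraries, against 238 and 259 in sgRosa26 libraries, with both guides above both controls (0.58, SE 0.10, limma adjusted p = 0.0012).

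The receptor genes had the fewest reads per length of the 9 and split in direction. Tnfrsf10b, the mouse TRAIL receptor gene, had 19.5 and 25.1 normalized counts in sgSik3 libraries, against 44.2 and 65.8 in sgRosa26 libraries (-1.25, SE 0.27, limma adjusted p = 0.0046). Eda2r, a receptor for ectodysplasin A2, had 6.81 and 4.37 in sgSik3 libraries, against 24.5 and 18.9 in sgRosa26 libraries (-1.80, SE 0.39, limma adjusted p = 0.0044). In whole reads Eda2r rested on 7 and 4 reads in sgSik3 libraries and on 26 and 19 in sgRosa26 libraries, and it entered the test of genes with a mean of at least 10 normalized counts only through the sgRosa26 libraries. Fas, the receptor of Fas ligand, had 21.4 and 25.1 normalized counts in sgSik3 libraries, against 6.58 and 14.0 in sgRosa26 libraries, and rose (1.18, SE 0.39, limma adjusted p = 0.034). That call was lost without sgRosa26 library 1 (0.69, limma adjusted p = 0.12), guide e1 (1.29, 0.10) or guide e3 (1.07, 0.17), as well as with DESeq2 (adjusted p = 0.19), without the filter on low values (limma adjusted p = 0.051) and without the mean-variance trend (0.080).

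**Figure D1:**
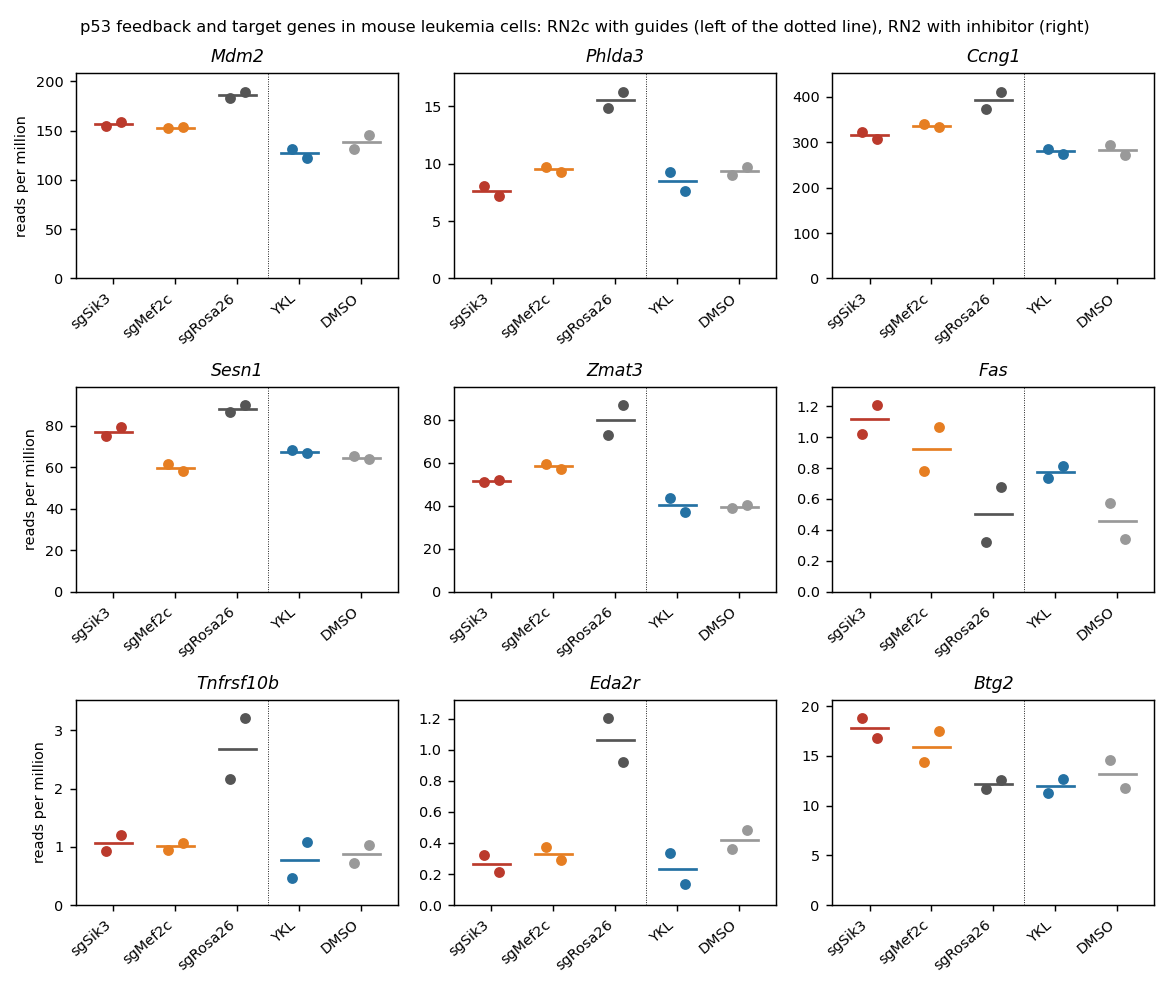
Level of the 9 genes (vertical axes, RPM) in the 10 mouse libraries, with each point 1 library and each short line the mean of a group. Left of the dotted line are RN2c cells with sgSik3, sgMef2c and sgRosa26, and right of it RN2 cells with YKL-05-099 (YKL) and DMSO. For 7 genes the sgRosa26 points lie above all sgSik3 and sgMef2c points, and for Fas and Btg2 they lie below them. The 7 include Eda2r, which was tested only through its high sgRosa26 values. Among all tested genes, 37.8% were lower and 37.4% higher without overlap in sgSik3, and 35.0% lower and 35.5% higher in sgMef2c libraries. The share in both at once was not counted, and both use the same sgRosa26 libraries.

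Other p53 genes were split in the sgSik3 comparison, where 23.9% of all tested genes were lower and 23.9% higher. Of 15 arrest and DNA repair targets, 5 rose and 5 fell. Cdkn1a, which encodes the cell cycle inhibitor p21, averaged 4489 ± 112 normalized counts in sgSik3 libraries and 6227 ± 209 in sgRosa26 libraries (SD, n = 2 each), a log2 difference of -0.47 (SE 0.04, limma adjusted p = 1.4e-05), whereas Gadd45a rose by 0.75 and E2f7 by 0.60. Of 13 tested apoptosis targets, 7 fell and 2 rose, and Pmaip1, which encodes NOXA, was at -0.45, Ninj1 at -0.56 and Bax at -0.30, beside Apaf1 at 0.37. Of 21 tested metabolic and signalling targets, 7 fell and 3 rose, among them the adenylate kinase gene Ak1 at -1.02 and the tetraspanin gene Cd82 at 0.74.

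Among p53 and its regulators 6 of 15 tested genes rose and 4 fell in sgSik3 libraries, beside 23.9% each way of all tested genes. Cdkn2a, whose locus encodes the MDM2 inhibitor ARF, fell by 0.49, while Mdm4, which encodes a partner of MDM2 that blocks p53, was at 0.21 (limma adjusted p = 0.0033). The damage kinase genes Atm and Atr fell by 0.30 and 0.35, and Ppm1d, a p53-induced phosphatase gene, did not pass (-0.07, limma adjusted p = 0.47). The median log2 difference was 0.10 for the arrest list, -0.16 for the apoptosis list, -0.04 for the metabolic list and -0.04 for the regulators.

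In the second comparison Mef2c was targeted, and of the 8 genes other than Eda2r, which again entered only through the controls, 6 were lower and 1 was higher in sgMef2c libraries. Of 10956 tested genes 31.4% passed, 15.1% lower and 16.3% higher, and the median log2 difference was -0.33 over the 8 genes and 0.0002 over all tested genes. The sgRosa26 libraries are those of the first comparison, with the same reads for every gene, and differ in normalized count only because each table was scaled on its own. A shared direction in both comparisons is therefore not independent.

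Mdm2 had 3320 and 3405 normalized counts in sgMef2c libraries, against 3919 and 4079 in sgRosa26 libraries (log2 difference -0.25, SE 0.04, limma adjusted p = 0.0049). For Phlda3 the values were 210 and 207 in sgMef2c libraries, against 318 and 350 in sgRosa26 libraries (-0.68, SE 0.10, limma adjusted p = 0.0027). Ccng1 had 7391 and 7406 in sgMef2c libraries, against 7996 and 8859 in sgRosa26 libraries (-0.19, SE 0.05, limma adjusted p = 0.035). All 3 feedback genes were below the controls without overlap, but the Ccng1 call was lost without sgRosa26 library 2 (-0.11, limma adjusted p = 0.18), guide 1 (-0.18, 0.068) or guide 2 (-0.19, 0.087). Without the mean-variance trend the call of Mdm2 (limma adjusted p = 0.052) was lost too, as were those of Ccng1 (0.14) and Zmat3 (0.075).

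Sesn1 and Zmat3 fell after sgMef2c too, and Btg2 rose. Sesn1 had 1334 and 1286 normalized counts in sgMef2c libraries, against 1848 and 1934 in sgRosa26 libraries (-0.53, SE 0.05, limma adjusted p = 0.0007). Zmat3 had 1296 and 1272 in sgMef2c libraries, against 1560 and 1872 in sgRosa26 libraries (-0.41, SE 0.08, limma adjusted p = 0.011). Btg2, with 312 and 388 normalized counts in sgMef2c libraries, against 250 and 272 in sgRosa26 libraries, was higher by a narrow margin (0.41, SE 0.12, limma adjusted p = 0.040). It did not pass without sgRosa26 library 1 (0.35, limma adjusted p = 0.15), sgRosa26 library 2 (0.47, 0.074) or guide 2 (0.26, 0.22), with DESeq2 (adjusted p = 0.089), without the filter (limma adjusted p = 0.057) or without the trend (0.11).

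Tnfrsf10b had 20.6 and 23.7 normalized counts in sgMef2c libraries, against 46.5 and 69.0 in sgRosa26 libraries (-1.32, SE 0.26, limma adjusted p = 0.010). Eda2r had 8.06 and 6.46 in sgMef2c libraries, against 25.7 and 19.9 in sgRosa26 libraries (-1.52, SE 0.34, limma adjusted p = 0.016). In whole reads Eda2r rested on 9 and 6 in sgMef2c libraries and on 26 and 19 in sgRosa26 libraries. It entered the test only through the sgRosa26 libraries, where it was high, so its p-value is conditional on that. Both receptor genes were lower with both guides, yet the Tnfrsf10b call was lost without sgRosa26 library 2 (-1.04, limma adjusted p = 0.060), and that of Eda2r without sgRosa26 library 1 (-1.34, 0.097) or guide 2 (-1.38, 0.063) and with DESeq2 (0.13). Fas had 17.0 and 23.7 normalized counts in sgMef2c libraries, against 6.92 and 14.6 in sgRosa26 libraries, and did not pass (0.92, SE 0.42, limma adjusted p = 0.14).

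None of the 8 genes other than Eda2r had overlapping groups in either guide comparison. The background is high here as well: of all tested genes 37.8% were lower and 37.4% higher without overlap in sgSik3 libraries, and 35.0% lower and 35.5% higher in sgMef2c libraries.

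Among the other p53 genes in the sgMef2c comparison, Cdkn1a fell by 0.49 and Pmaip1 by 0.42, and Gadd45a rose by 0.98. Of all tested genes 15.1% were lower and 16.3% higher there. Of 15 arrest and repair targets 3 fell and 5 rose, of 13 apoptosis targets 7 fell and 1 rose, and of 21 metabolic and signalling targets 7 fell and 1, Cd82 at 0.90, rose. Cdkn2a fell by 0.55, and of 15 tested regulators 4 fell and 3 rose. Mdm4 (0.11, limma adjusted p = 0.056) and Ppm1d (-0.11, limma adjusted p = 0.30) did not pass. The median log2 difference was 0.04 for the arrest list, -0.18 for the apoptosis list, -0.13 for the metabolic list and 0.004 for the regulators.

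A direct test of the knockouts, sgMef2c against sgSik3, used edgeR on whole reads recovered from both tables and called 9.44% of 10954 genes, 5.74% lower and 3.7% higher. Sesn1 was the only one of the 9 genes past the threshold and was lower in sgMef2c libraries (log2 difference -0.37, edgeR adjusted p = 0.0030). That call did not hold without guide e1 (-0.41, edgeR adjusted p = 0.054) or guide e3 (-0.34, 0.084), and 50 genes passed in all in each case. Phlda3 (0.31, edgeR adjusted p = 0.11) and Zmat3 (0.18, 0.19) were above the threshold, and Mdm2 differed by -0.04 (0.58).

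The third comparison asked whether the inhibitor moved the same genes within 2 hours in RN2 cells. None of the 7 tested genes passed, where the background was 0.317% of 10732 genes, 34 in all (0.28% lower, 0.0373% higher). At an unadjusted p under 0.05, 786 genes passed, of which 1 was among the 7, and edgeR called 30 genes and DESeq2 34, none of them among the 9. A p above the threshold does not show that the levels were equal.

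Mdm2 had 1906 and 1770 normalized counts in RN2 cells with YKL-05-099, against 1929 and 2123 with DMSO. Both inhibitor libraries were below both DMSO libraries, but the gap between the nearest pair was small, and the difference did not pass (log2 difference -0.14, SE 0.06, limma adjusted p = 0.66). With the library number as a block it did pass (limma adjusted p = 0.029), as did 499 of 10732 genes. The labels do not say that the numbers pair libraries. Phlda3 had 135 and 110 with YKL-05-099, against 132 and 141 with DMSO, and Ccng1 had 4151 and 3957 with YKL-05-099, against 4310 and 3952 with DMSO. The groups overlapped for both (-0.16, SE 0.15, and -0.03, SE 0.05).

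Sesn1 had 987 and 964 normalized counts with YKL-05-099, against 957 and 927 with DMSO, slightly higher without overlap and not past the test (0.05, SE 0.06, limma adjusted p = 0.91). Without overlap, 18.1% of all tested genes were higher and 18.7% lower with the inhibitor. Zmat3 had 634 and 533 with YKL-05-099, against 571 and 588 with DMSO (0.01, SE 0.09), and Btg2 had 164 and 184 with YKL-05-099, against 214 and 171 with DMSO (-0.14, SE 0.14). Both overlapped between groups. Tnfrsf10b had 6.80 and 15.6 normalized counts with YKL-05-099, against 10.5 and 15 with DMSO, and also overlapped (-0.25, SE 0.45).

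Fas and Eda2r lay under the minimum mean of 10 normalized counts in RN2 and were not tested. Fas had 10.7 and 11.7 with YKL-05-099, against 8.40 and 5 with DMSO, and Eda2r had 4.86 and 1.95 with YKL-05-099, against 5.25 and 7 with DMSO. Of the other p53 genes none passed in RN2. Cdkn1a averaged 2278 ± 150 normalized counts with YKL-05-099 and 2706 ± 209 with DMSO (SD, n = 2 each), without overlap but at a limma adjusted p = 0.23, and Pmaip1 stood at -0.34 (limma adjusted p = 0.22). The lowest adjusted p among the lists was that of Hipk2, a kinase gene that acts on p53 (-0.26, limma adjusted p = 0.067).

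**Figure D2:**
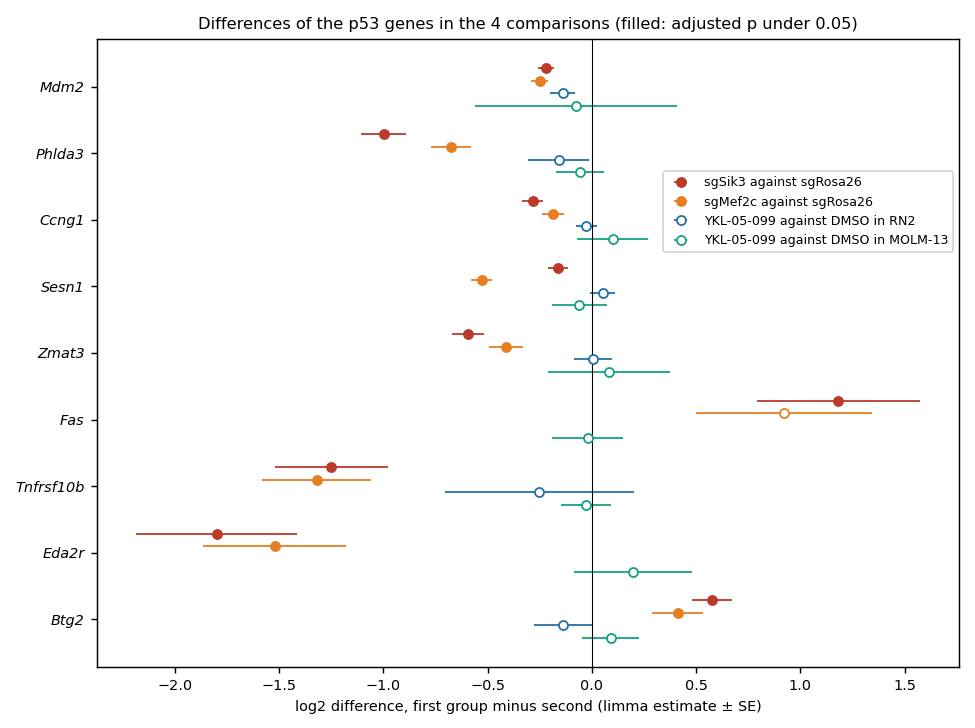
Log2 differences of the 9 genes in the 4 comparisons (points, limma estimate, with bars for ± 1 SE), filled where the adjusted p is under 0.05. Mouse symbols stand for the human genes in MOLM-13, and Fas and Eda2r have no point for RN2, where they were not tested. The sgSik3 and sgMef2c points lie left of 0 for 7 genes and right of it for Fas and Btg2, and no inhibitor point is filled.

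In MOLM-13 cells the inhibitor left the 9 genes without a call as well. Of 11361 tested genes 0.0% passed with limma and 144 passed at an unadjusted p under 0.05, none of them among the 9, while edgeR called 0 and DESeq2 7 genes. MDM2 averaged 3731 ± 2155 normalized counts with YKL-05-099 and 3943 ± 2310 with DMSO (SD, n = 2 each). The spread within each agent was far larger than the difference (log2 difference -0.08, SE 0.49). That spread followed the library number, described below, which this fit does not hold. With the library number as a block 290 genes passed with limma, and 0 of the 9. For all 9 genes the groups overlapped, and the log2 differences ran from -0.08 for MDM2 to 0.20 for EDA2R. Of all tested genes 10.7% were higher and 10.5% lower without overlap. Without DMSO library 2, MDM2 was the only call among the 9 genes (log2 difference -0.71). That fit sets both YKL-05-099 libraries, numbers 1 and 2, against DMSO number 1 alone. Within a number, the MDM2 ratio of YKL-05-099 to DMSO was 0.942 for number 1 and 0.956 for number 2.

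In MOLM-13, 7 of the 9 genes were lower in the libraries numbered 2 than in those numbered 1. Between the libraries of a group the chi-square over its degrees of freedom was 14.4 for MOLM-13 DMSO and 13.7 for MOLM-13 YKL-05-099, against 1.71 to 8.64 in the mouse groups. The labels do not say what the numbers stand for, so passage, day, handling and the cells themselves cannot be told apart. With the agent held in the model, 38.1% of 11361 genes differed between number 2 and number 1, 20.8% lower and 17.3% higher. The model leaves 1 degree of freedom among libraries and draws its strength from the spread of other genes: without the mean-variance trend no gene passed (limma adjusted p = 0.091 for MDM2), and DESeq2 called 4 of the 7, MDM2, CCNG1, ZMAT3 and TNFRSF10B.

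MDM2 had 2207 normalized counts with YKL-05-099 and 2310 with DMSO in the libraries numbered 2, against 5254 with YKL-05-099 and 5576 with DMSO in those numbered 1. The number 2 level was thus 0.420 of the number 1 level with YKL-05-099 and 0.414 with DMSO, nearly the same ratio under either agent (log2 difference -1.26, SE 0.04, limma adjusted p = 8.7e-165, a value set by the spread pooled over all genes). Within a number, the ratio of YKL-05-099 to DMSO was 0.956 for number 2 and 0.942 for number 1.

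CCNG1 had 2811 and 2611 normalized counts in number 2 (YKL-05-099, then DMSO), against 3658 and 3426 in number 1 (-0.39, SE 0.05). ZMAT3 had 465 and 443 in number 2, against 772 and 722 in number 1 (-0.72, SE 0.07). Both were higher with YKL-05-099 within each number, by ratios of 1.08 and 1.07 for CCNG1 and 1.05 and 1.07 for ZMAT3 in numbers 2 and 1. SESN1 had 1038 and 1058 in number 2, against 1195 and 1275 in number 1 (-0.24, SE 0.06, limma adjusted p = 0.0002).

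Of the receptor genes, FAS and TNFRSF10B were lower in number 2, and EDA2R did not pass. FAS had 310 and 313 normalized counts in number 2, against 386 and 392 in number 1 (-0.32, SE 0.09, limma adjusted p = 0.0025), and TNFRSF10B, which encodes the TRAIL receptor DR5, had 3446 and 3540 in number 2, against 4063 and 4121 in number 1 (-0.23, SE 0.04). BTG2 had 641 and 671 in number 2, against 804 and 678 in number 1, where the DMSO libraries lay close together (-0.17, SE 0.07, limma adjusted p = 0.035). PHLDA3 (573 and 559 in number 2, against 565 and 629 in number 1) and EDA2R (39.2 and 47.0 in number 2, against 53.3 and 33.5 in number 1) overlapped and did not pass. Of all tested genes 32.4% were lower and 32.2% higher in number 2 without overlap.

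**Figure D3:**
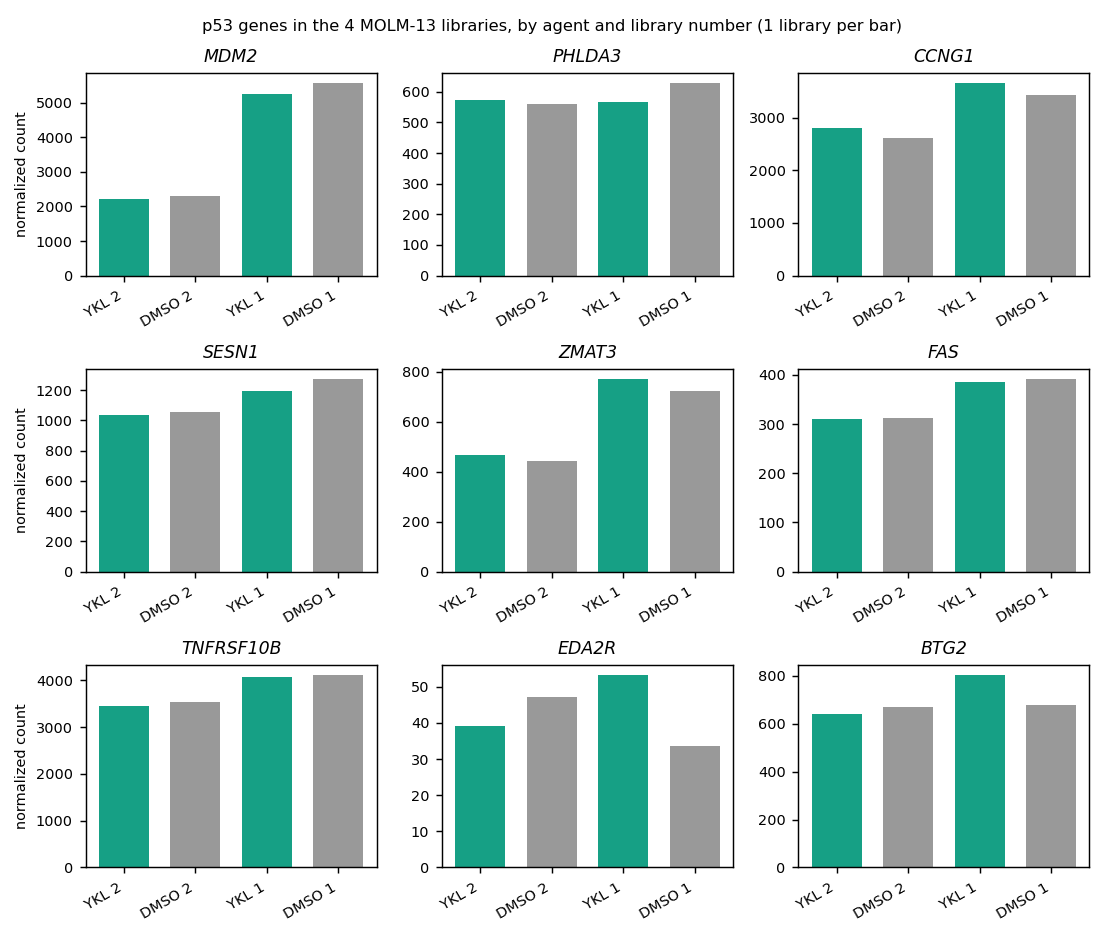
Normalized counts of the 9 human genes in the 4 MOLM-13 libraries, 1 bar a library, with number 2 left of number 1 and YKL-05-099 (green) left of DMSO (grey) within each number. The MDM2 bars stand at 2207 and 2310 in number 2, against 5254 and 5576 in number 1, and the bars of PHLDA3 and EDA2R show no such step.

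The same number separated other genes of the MDM2 loop, beside 20.8% of all tested genes lower and 17.3% higher in number 2. MDM4 averaged 535 ± 27.1 normalized counts in number 2 and 904 ± 81.6 in number 1 (SD, n = 2 each), a log2 difference of -0.75 (SE 0.07, limma adjusted p = 1.3e-25), and PPM1D fell by 0.29. CDKN2A was listed at 0 reads in the MOLM-13 libraries and not tested. Of 15 tested regulators 8 were lower and 1 was higher. Of 14 tested arrest and repair targets 7 were lower and 1 was higher, with CDKN1A at -0.41, PLK2 at -0.68 and RRM2B, a ribonucleotide reductase subunit gene, at -0.37. Of 14 apoptosis targets 4 were lower, led by TP53INP1 at -0.81, and BAX (0.07, limma adjusted p = 0.26) and PMAIP1 (0.02, 0.88) did not pass. Metabolic and signalling targets were mixed, with 3 of 20 lower and 6 higher, SESN2 at 0.42 and ASS1 at 0.28 among them.

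**Figure D4:**
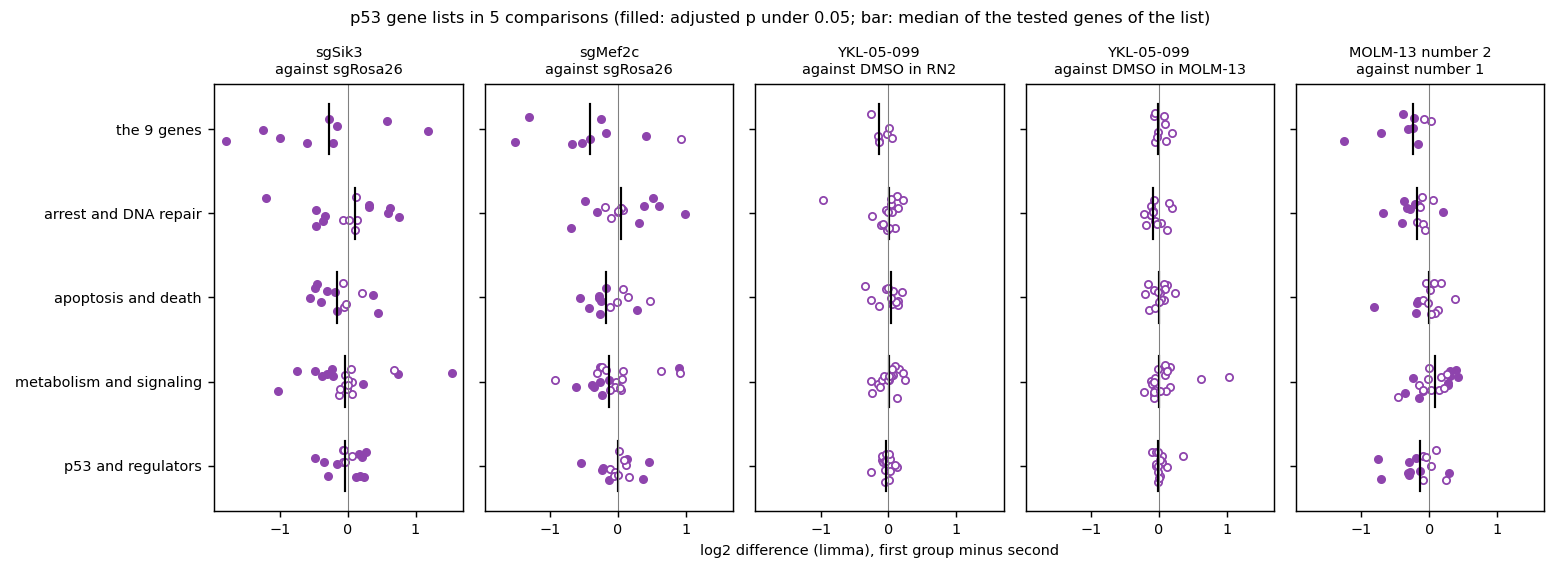
Log2 differences (limma, horizontal axis) of the 9 genes and of 4 lists of other p53 genes in 5 comparisons, with each circle 1 tested gene, filled where the adjusted p is under 0.05, and a bar at the median of the list. The bar of the 9 genes, Eda2r included, is at -0.28 for sgSik3, -0.41 for sgMef2c and -0.24 for MOLM-13 number 2, and no circle is filled under the inhibitor. Without Eda2r the median is -0.25 for sgSik3 and -0.33 for sgMef2c.

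Whether guides and inhibitor moved a gene unequally was tested as the difference of their effects in 1 edgeR fit of the 10 mouse libraries, in which Eda2r was not tested. The sgSik3 effect differed from the inhibitor effect for 24.0% of 10939 genes (11.6% lower, 12.3% higher) and for 4 of the 8 tested p53 genes. Phlda3 (log2 difference -0.83, limma SE 0.18, edgeR adjusted p = 0.0040), Zmat3 (-0.60, 0.12, edgeR adjusted p = 0.0035) and Ccng1 (-0.25, 0.08, edgeR adjusted p = 0.030) were lower after sgSik3 relative to the inhibitor, and Btg2 was higher (0.73, 0.19, edgeR adjusted p = 0.014). For Mdm2 the effects differed by -0.07 (limma SE 0.07, edgeR adjusted p = 0.54), so a difference between guide and inhibitor was not detectable, although Mdm2 passed in the first comparison and not in the third. Sesn1 lay at the threshold (-0.21, edgeR adjusted p = 0.053, and 0.046 with limma), and Tnfrsf10b (-1.10, limma SE 0.53, edgeR adjusted p = 0.18) and Fas (0.44, 0.67) did not pass.

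Of these 4 calls, those of Phlda3 and Zmat3 held whichever library was left out. The Ccng1 call was lost without sgRosa26 library 2 (-0.17, edgeR adjusted p = 0.12), guide e3 (-0.22, 0.11), DMSO library 2 (-0.19, 0.11) or YKL-05-099 library 1 (-0.23, 0.088), and the Btg2 call without guide e1 (0.64, 0.071), DMSO library 1 (0.55, 0.078) or YKL-05-099 library 1 (0.64, 0.062). Line, time and agent all differ between these effects (RN2c on day 2, RN2 at 2 hours), and their parts cannot be told apart.

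The sgMef2c effect differed from the inhibitor effect for 15.9% of genes (7.3% lower, 8.61% higher) and for 2 of the 8 p53 genes. Sesn1 was lower after sgMef2c relative to the inhibitor (-0.58, limma SE 0.07, edgeR adjusted p = 0.0002), as was Zmat3 (-0.42, 0.12, edgeR adjusted p = 0.033). The Sesn1 call held without any single library, whereas that of Zmat3 was lost without sgRosa26 library 2 (-0.29, edgeR adjusted p = 0.10), guide e1 (-0.44, 0.054), guide e3 (-0.44, 0.054), sgMef2c guide 2 (-0.42, 0.086), DMSO library 1 (-0.42, 0.089), DMSO library 2 (-0.45, 0.064) or YKL-05-099 library 1 (-0.31, 0.16). Phlda3 (-0.52, edgeR adjusted p = 0.058) and Btg2 (0.56, 0.065) stood close to the threshold, and Mdm2 differed by -0.11 (0.39).

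Per length, as RPKM, reads scaled to exon length and to library total, Ccng1 was the most abundant of the 9 mouse genes and Eda2r the least. Ccng1 averaged 89.9 ± 2.93 RPKM in sgSik3, 95.9 ± 1.28 in sgMef2c and 112 ± 7.59 in sgRosa26 libraries, and 79.7 ± 2.39 with YKL-05-099 and 80.5 ± 4.58 with DMSO in RN2 (SD, n = 2 each). Mdm2 came next, with 30.8 ± 0.542, 30.1 ± 0.0961 and 36.6 ± 0.876 RPKM in sgSik3, sgMef2c and sgRosa26 libraries and 25.0 ± 1.21 and 27.3 ± 1.97 RPKM with YKL-05-099 and DMSO. The ratio of the sgRosa26 mean to the RN2 DMSO mean was 0.922 for Btg2 and 1.09 for Fas, whose libraries overlapped. It was 1.34 for Mdm2, 1.37 for Sesn1 and 1.39 for Ccng1. The widest gaps were those of Tnfrsf10b (3.08), Eda2r (2.53), Zmat3 (2.01) and Phlda3 (1.66). How many of all genes differ as much between these groups was not counted. Phlda3 had 9.98 ± 0.629 RPKM in sgRosa26 against 6.0 ± 0.299 in RN2 DMSO libraries, Zmat3 had 6.98 ± 0.865 against 3.47 ± 0.0877, Tnfrsf10b had 0.493 ± 0.134 against 0.160 ± 0.0407 and Eda2r had 0.180 ± 0.0334 against 0.0712 ± 0.0147. In RPKM, the sgSik3 and sgMef2c means of those 4 genes lay nearer to RN2 DMSO than to sgRosa26. They were 4.88 ± 0.384 and 6.09 ± 0.165 for Phlda3 and 0.196 ± 0.0360 and 0.185 ± 0.0156 for Tnfrsf10b. On a log scale the Zmat3 sgMef2c mean, 5.11 RPKM, lay nearer to sgRosa26. The 4 genes were picked by their high sgRosa26 ratio, which favours this outcome. The Mdm2 and Ccng1 means given above lay nearer to RN2 DMSO too. The sgSik3 mean of Sesn1, 19.3 RPKM, lay nearer to sgRosa26 (22.1) than to RN2 DMSO (16.2). RN2c and RN2 differ in Cas9, virus, guide and time, so these levels are given without a test. Fas and Eda2r averaged at most 0.540 RPKM in every mouse group.

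Across the 10 mouse libraries, with the mean of each line removed, the genes whose log2 level was most like that of Mdm2 were Mb21d1 (Pearson r = 0.974), Tox4 (0.970), Nepro (0.967), Tab2 (0.964) and Rlim (0.959) of 9834 genes. Phlda3 ranked 205 (r = 0.862) and Zmat3 469 (r = 0.820), Ccng1 had r = 0.708 and Sesn1 0.663, and Btg2 ran against Mdm2 with r = -0.718. The libraries share controls and fall into few groups, so these values describe the ranking only.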

How the data were processed

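Polyadenylated RNA of 14 libraries was sequenced, with an unstranded kit per the labels' protocols. The submitters' processing notes name HISAT2, featureCounts and DESeq2 and the builds hg19 and mm10. Which versions were run is not given in the sources used here. Each of the 4 tables the authors deposited was normalized separately and holds DESeq2-normalized values, which are a signal and not raw counts: read counts divided by the size factor of the library. Dividing by the worth of 1 read gave whole reads for 100% of values (tolerance 1e-06). The sgRosa26 libraries held the same reads in both RN2c tables (0 genes differed).

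The members and lists were chosen with earlier results of these data known. Within a table, limma 3.58.1 in R 4.3.3 was run two-sided, with a mean-variance trend, on log2(value + 1) of genes whose mean value reached 10. That scale understates changes of low genes. Adjustment was by Benjamini-Hochberg, with a threshold of 0.05. Differences of effects between tables and the direct test of the knockouts used edgeR 4.0.16 (quasi-likelihood, TMM) on recovered reads with a mean of at least 10. Their SE came from limma with the sgMef2c values brought to the sgSik3 table's scale (factor 0.953), an alternative added after seeing the data. DESeq2 1.42.0 was an alternative. The scripts were tested on simulated data.

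All 9 members were named. Of each other list up to 4 genes of lowest p a comparison were named, with Mdm4, Ppm1d, Cdkn1a, Bax and Pmaip1 allowed throughout, and for Mdm2 the 5 genes of highest Pearson r among those with a mean of at least 50 reads. Sik3 and Mef2c checked the labels. The value of 1 gene of the regulator list is not reported here. Exon lengths came from GENCODE M21, and promoters from RefSeq. The labels do not state that libraries of a group were separate cultures. A p-value here therefore reflects how these libraries vary, possibly for technical reasons, and includes variation between guides. Between libraries of a group the chi-square over degrees of freedom was 1.71 to 14.4, so none agreed within sampling noise.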

Additional observations from a re-analysis of the deposited data

How the results depend on the processing

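Pseudocount 5, TMM scaling and edgeR kept every direction and call of the 9 genes in the within-table comparisons. Counts of members include Eda2r. Members higher in sgSik3 numbered 1 with a minimum of 50, without a filter, with DESeq2 and without the trend, and 1 to 2 without 1 library (lower 6 to 7, genes 3577 to 5481). In sgMef2c they numbered 0 without a filter, with DESeq2 (2253 genes) and without the trend (1628 genes, 4 members lower), and 0 to 1 without 1 library (lower 5 to 6, genes 1815 to 3138: 2206 without sgRosa26 1, 2119 without sgRosa26 2 and 1815 without guide 2). RN2 genes called numbered 3 without a filter, 0 without the trend and 28 to 321 without 1 library (130 without DMSO 1, 321 without DMSO 2), and members lower 0. MOLM-13 genes called numbered 7 with DESeq2 and 14 to 20 without 1 library (16, 15, 14 and 20 without DMSO 1, DMSO 2, YKL-05-099 1 and YKL-05-099 2), and members lower 0 to 1. For MOLM-13 numbers, DESeq2 called 1377 genes and 4 members lower, and no trend 0 and 0. The causes were not tested.

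The same numbers could pair libraries, but the labels do not say so, and only 2 pairs exist. Deviations of same-numbered libraries correlated at 0.051 (sgMef2c), 0.216 (RN2) and 0.525 (MOLM-13). With the replicate block RN2 had 499 genes and 1 member lower (Mdm2, limma adjusted p = 0.029), and MOLM-13 290 genes, and no other call of the 9 genes changed under the block.

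For sgSik3 minus inhibitor, leaving out 1 library gave 1732 to 2708 genes, 0 to 1 members higher and 2 to 4 lower (1732 without guide e1). For sgMef2c minus inhibitor it gave 1046 to 2002 genes, 0 to 1 higher and 1 to 3 lower (1046 without guide 2, 1087 without YKL-05-099 2), and limma on the separately scaled values 1 higher and 1 lower. For sgMef2c against sgSik3 it gave 50 to 1152 genes, 0 to 1 higher and 0 to 1 lower (50 without guide e1 or e3, 633 without guide 1). DESeq2 called 606 genes there, and limma on the separately scaled values called 2331 genes and 3 members higher, with Mdm2 at 0.041. With the tables on 1 scale limma called 1083 genes, 0 higher and 1 lower, with Mdm2 at -0.029, so that reversal came with the scale.

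Without 1 library, members not past the test changed sign: in MOLM-13 MDM2 (-0.71 to 0.56), PHLDA3 (-0.14 to 0.027), CCNG1 (-0.095 to 0.30), SESN1 (-0.19 to 0.074), ZMAT3 (-0.28 to 0.45), FAS (-0.18 to 0.14), TNFRSF10B (-0.15 to 0.089), EDA2R (-0.041 to 0.44) and BTG2 (-0.073 to 0.25). In RN2 these were Ccng1 (-0.089 to 0.036), Zmat3 (-0.12 to 0.13), Tnfrsf10b (-0.80 to 0.29) and Btg2 (-0.30 to 0.022). The others were Tnfrsf10b in sgMef2c against sgSik3 (-0.27 to 0.10) and Fas minus inhibitor (-0.0049 to 1.06 for sgSik3, -0.28 to 0.78 for sgMef2c). A lone library is assumed to vary like the other groups. No library could be left out for MOLM-13 numbers, where no spread would remain. Depth limits Eda2r, Fas and Tnfrsf10b most, at 2 to 66 reads a mouse library.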

Other observations

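DDIT4, a target of p53 and of other stress pathways that restrains mTORC1, had the largest inhibitor difference of the p53 lists in MOLM-13. It averaged 873 ± 11.6 normalized counts with YKL-05-099 and 434 ± 114 with DMSO (SD, n = 2 each). The groups did not overlap, where 10.7% of all tested genes were higher with YKL-05-099 without overlap. The log2 difference of 1.03 (SE 0.18) did not pass the test (limma adjusted p = 1.00). In RN2 Ddit4 stood at 0.12 (limma adjusted p = 0.87), and after sgMef2c it fell by 0.24 (limma adjusted p = 0.036).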
